A study of Mus musculus with 121 samples.

Results

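Transcript levels were followed for 10 genes that govern entry into and passage through the cell cycle in mouse fibroblasts: Wee1, Cdkn1a, Cdkn1b, Cdkn2a, Ccnd1, Ccnd2, Ccnd3, Cdk4, Cdk6 and Myc. The genes were listed by name and matched by Ensembl identifier. They are 10 of the 31053 identifiers counted, and all 10 passed the filter on low values (a level of 1 CPM, the count scaled to 1e+06 counts in the library, reached in 3 libraries) that left 13292 genes for testing.

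The cells were fibroblasts from Per2::Luc knock-in mice (labelled PER2::LUC sv, passage 25), a line that the study describes as immortalized and taken from the ear, and every group carries this allele. Medium was changed every 12 h over 3 cycles of 24 h. H is the medium rich in glucose and insulin and L the medium poor in both, so HL received H then L, LH received L then H, and HH, the control for medium change, received H each time. A free run of 12 h, with no cue imposed, followed these cycles. RNA was then collected at 6 points 4 h apart, here counted in hours from the first by the collection number in the sample titles. The titles also carry an hour that does not rise in steps of 4 with that number: for collections 1 to 6 it is 20, 12, 4, 8, 12 and 16 in HL and HH, and 20, 12, 16, 20, 12 and 16 in LH. What this hour stands for is not given in the sources used here, and it was not used. The RNA was sequenced by 3′DGE, where reads come from the 3′ end and a level in CPM does not scale with transcript length. Defining fibroblast genes were abundant (summed level of 12 markers 18800 to 43600 CPM), whereas the summed level of 7 epithelial markers stayed at or below 4.57 CPM and that of 5 muscle markers at or below 1.95 CPM. Leukocyte markers summed to 334 CPM in the library of lowest depth and to 26.2 CPM or less in the others, and 4 adipocyte markers to 13.1 CPM in 1 library titled LH at 4 h (replicate 4) and to 1.26 CPM or less in the others. The 5 endothelial markers summed to 23.3 to 270 CPM, nearly all from Kdr (mean 172 CPM), while Pecam1, Cdh5, Tek and Vwf had means of 0.276 CPM or less. The part of these markers in the results was not tested.

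By the titles of the samples the 62 libraries comprise 21 HL, 22 LH and 19 HH libraries. Each treatment and collection has 2 to 4 of them by titles. Each library also carries a number, and the study's read summary gives a treatment and collection for 57 of these numbers. Title and number give the same name to 22 libraries, among them all 19 of HH, and another name to 35. Of the libraries titled HL, 15 are LH by number, and of those titled LH, 16 are HL by number. The libraries of HH are therefore the same whichever is followed, and results for HL and LH are given both ways. By numbers each treatment and collection has 1 to 4 libraries, and LH at 16 h is the one with 1, so that its level there has no replicate in the LH tests by number. Library totals were 2136819 to 11619095 counts (median 5825881) apart from 1 library of 104912 counts, titled LH at 4 h, whose number is not listed. In it a gene with 0 counts may lie anywhere up to 28.6 CPM (3 counts), and Wee1 had 3 counts.

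These genes act at both gates of the cycle. D-type cyclins (Ccnd1, Ccnd2, Ccnd3) activate the kinases Cdk4 and Cdk6, which phosphorylate the retinoblastoma protein and let cells leave G1, and Myc, a transcription factor that pairs with MAX on E-boxes, raises the expression of growth and cell cycle genes. Cdkn1a (p21), Cdkn1b (p27) and Cdkn2a (p16 and p19ARF) encode inhibitors of this step, the last also protecting p53 from MDM2. Wee1 is a kinase that holds back mitosis by phosphorylating CDK1, and in liver it is a known output of the circadian clock, driven through E-boxes by CLOCK and BMAL1, while Cdkn1a is a target of p53 and in liver also of REV-ERB and ROR factors.

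Promoter windows, from 250 bases before to 50 after the annotated start, were found for 6 of the 10 genes in RefSeq (GRCm38.p6), 9 windows in all. Windows were not at hand for Wee1, Ccnd1, Ccnd2 and Myc. The windows below are shown because Cdkn1a is the inhibitor with the lowest JTK P in HH, before adjustment, and Cdk4 is the kinase whose window holds the clock and MYC hexamer most often. The hexamer CACGTG, its own complement, was present in 7.15% of all 32851 windows and 4 or more times in 0.0244% of them. In the Cdk4 window (chr10:127063285-127063584, plus strand) it occurred 4 times, shown in capitals, and the copy that begins 98 bases before the start shares bases with an AGGTCA, the core of the REV-ERB and ROR element.
Cdk4: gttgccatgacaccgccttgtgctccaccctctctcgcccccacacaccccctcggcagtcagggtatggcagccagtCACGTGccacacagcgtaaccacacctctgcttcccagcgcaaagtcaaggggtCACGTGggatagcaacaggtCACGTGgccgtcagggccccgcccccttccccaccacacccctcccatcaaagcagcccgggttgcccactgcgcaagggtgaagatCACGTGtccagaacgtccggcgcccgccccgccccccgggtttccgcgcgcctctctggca

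Cdkn1a has 2 annotated starts. The upstream window (chr17:29090729-29091028, plus strand) held 2 matches to the p53 half-site on either strand, in capitals, a motif present in 8.36% of all windows and at least 2 times in 0.359%. The downstream window (chr17:29093519-29093818, plus strand) held none. Neither contained the clock hexamer, nor AGGTCA (16.3% of all windows), nor the D-box sequence TTATGTAA, which 0.938% of windows hold.
Cdkn1a, upstream start: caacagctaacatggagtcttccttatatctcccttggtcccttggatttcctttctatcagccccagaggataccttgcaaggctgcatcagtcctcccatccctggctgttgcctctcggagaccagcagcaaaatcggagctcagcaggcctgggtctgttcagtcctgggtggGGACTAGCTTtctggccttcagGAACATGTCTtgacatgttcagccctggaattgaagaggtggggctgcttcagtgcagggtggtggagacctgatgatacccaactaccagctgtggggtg
Cdkn1a, downstream start: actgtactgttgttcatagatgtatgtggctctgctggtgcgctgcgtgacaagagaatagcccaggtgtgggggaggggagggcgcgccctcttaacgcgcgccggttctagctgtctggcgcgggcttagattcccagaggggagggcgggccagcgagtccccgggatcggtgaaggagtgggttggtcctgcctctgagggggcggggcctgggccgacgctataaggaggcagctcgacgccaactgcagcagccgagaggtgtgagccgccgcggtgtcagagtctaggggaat

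The Cdk6 window (chr5:3343643-3343942, plus strand) held CACGTG 1 time, and the 5 windows of Cdkn1b, Cdkn2a and Ccnd3 held none. Cdkn2a has 2 starts on the minus strand (windows chr4:89294570-89294869 and chr4:89282143-89282442), and its annotated transcripts end within 70 bases of each other, so that 3′ reads cannot separate p19ARF from p16 transcripts. Such matches describe letters in a window and not binding.

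The 10 genes lie on chromosomes 4, 5, 6, 7, 10, 15 and 17 (GRCm38, GENCODE M21). Wee1 (ENSMUSG00000031016) spans chr7:110122046-110143286 and is overlapped over all its 21241 bases by the antisense gene 1600010M07Rik, which had a mean of 0.00372 CPM. The 3′ end of Cdk4 is overlapped by Tspan31 (mean 52.2 CPM) and that of Ccnd3 by Bysl (mean 30.3 CPM), both on the other strand, and that of Ccnd1 by LTO1 (mean 7.24 CPM). Whether counting used strand is not given in the sources used here, so reads in these overlaps cannot be assigned with certainty.

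Across all 62 libraries the levels were spread very unequally among the members. Ccnd2 had a mean of 2291 CPM ± 497 (SD, n = 62), Ccnd1 271.6 ± 72.5, and Ccnd3 217 ± 29.1, so that all 3 D-type cyclins were well measured. Their kinases had 129 ± 25.3 CPM (Cdk4) and 74.1 ± 12.7 CPM (Cdk6). Among the inhibitors, Cdkn2a stood at 588 ± 102 CPM, Cdkn1b at 123 ± 21.9 and Cdkn1a at 52.3 ± 22.9. Wee1 had 15.9 ± 5.15 CPM and Myc 5.98 ± 2.27 CPM, a median of 85 and 32.5 counts per library. At those medians counting alone gives a coefficient of variation of 10.9% for Wee1 and 17.5% for Myc, against 6.11% or less for the other 8 genes. In the 55 libraries with both sequencing runs over 1000000 counts, the log2(CPM + 1) of the runs correlated across libraries with Pearson's r = 0.998 for Ccnd2, 0.644 for Wee1 and 0.538 for Myc.

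**Figure D1:**
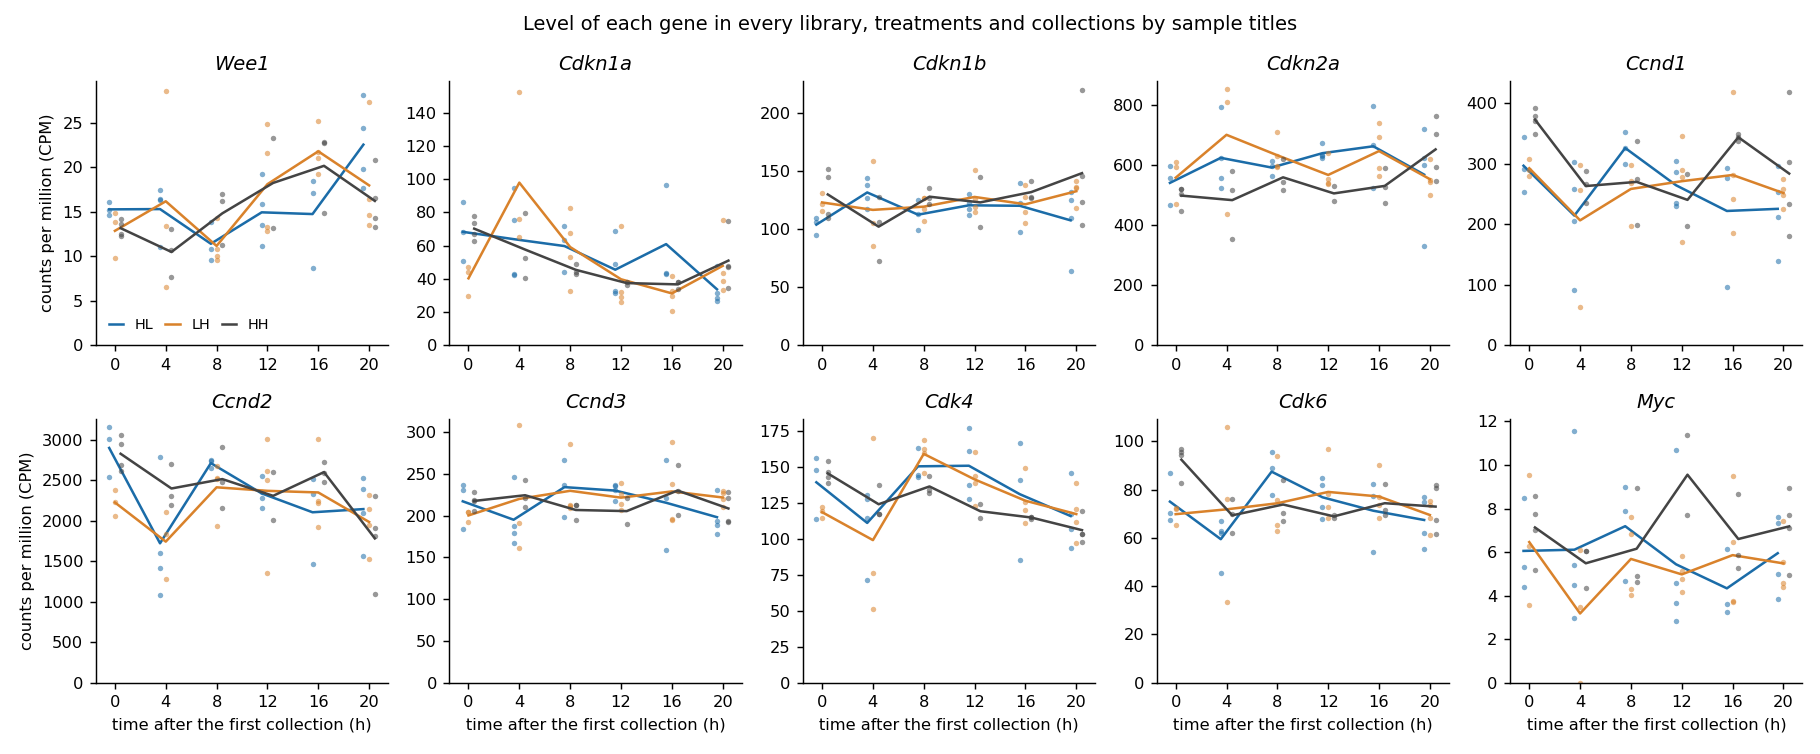
Level of each of the 10 genes in CPM (vertical axes, from 0) against hours after the first collection, by sample titles. Points are the 62 libraries, lines join the means of each treatment and collection, and colours mark HL, LH and HH. Wee1 means in HH run from 10.5 CPM at 4 h to 20.2 CPM at 16 h, and Cdkn1a means from 70.2 CPM at 0 h to 36.6 CPM at 16 h.

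The first question was which members follow a daily rhythm in the free run after the HH cycles, where both namings of the libraries coincide. JTK_CYCLE, a rank test of each gene against 24 h curves, was applied within HH at the study's threshold of 0.01, in a rewritten form whose null distribution keeps the ties of the reference curve and so differs from that of the published program. Wee1 and Cdkn1a passed, 2 of the 10 members, against 1.99% of 13292 genes. The other 8 did not, with P from 0.124 (Cdk4) to 1. No member reached P under 0.05 besides these 2 (6.42% of genes), and none passed 0.05 after adjustment over all genes (0.0226%). Over the 13198 genes tested by library numbers the shares in HH are 2.0%, 6.46% and 0.0227%. With the null distribution of the published program, in which all 6 collections count as distinct, the same 2 members were called, against 1.39% of genes by titles and 1.4% by numbers.

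Wee1, the brake on mitosis, was low in the first hours and high at 12 to 16 h. At 4 h the 3 HH libraries held 7.71, 10.7 and 13 CPM, and at 16 h they held 14.8, 22.8 and 22.9 CPM. Every library at 16 h lay above every library at 4 h. These collections were chosen as those with the highest and lowest mean. Ccnd2, Cdk6 and Myc, which did not pass JTK, had no overlap between theirs in HH either. Such a separation of chosen collections, here and below, is therefore no test. At 0 h the values were 12.3, 12.5, 13.7 and 14.2 CPM, and at 8 h 11.3, 16.2 and 17 CPM. At 12 h the 2 libraries differed widely, with 13.1 and 23.3 CPM, and at 20 h the values were 13.2, 14.3, 16.5 and 20.8 CPM. The means were 10.5 ± 2.67 CPM (SD, n = 3) at 4 h and 20.2 ± 4.63 CPM (n = 3) at 16 h, a ratio of 1.92, and a cosine fitted by least squares to log2(CPM + 1) put the peak at 15.2 h ± 0.92 (SE) with a peak-to-trough ratio of 1.7 (95% interval 1.32 to 2.21). The exact JTK test gave P = 0.00517 (n = 19 libraries), which was 0.393 after Benjamini-Hochberg adjustment over all genes.

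Cdkn1a ran the other way. At 0 h the 4 HH libraries held 62.7, 66.9, 73.3 and 77.8 CPM, and at 16 h the 3 held 33.8, 38 and 38 CPM. At 4 h they held 40.4, 52.7 and 79.8 CPM, at 8 h 42.9, 44.2 and 49 CPM, and at 12 h 36.5 and 38.3 CPM. From 8 to 16 h the libraries lay close together, and at 20 h they were spread out again (34.4, 47.2, 47.5 and 74.6 CPM). The means were 70.2 ± 6.68 CPM (SD, n = 4) at 0 h and 36.6 ± 2.41 CPM (n = 3) at 16 h, a ratio of 1.92. The fitted peak was at 1.22 h ± 0.767 (SE) with a peak-to-trough ratio of 1.88 (95% interval 1.44 to 2.44). The exact JTK test gave P = 0.00182 (n = 19), or 0.28 after adjustment over all genes.

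Both calls were lost in some cases where libraries or reads were left out, which also leaves the test less data. Without HH replicate 1 the P of Wee1 was 0.0569 and that of Cdkn1a 0.0117, without replicate 2 Wee1 had 0.0119, without replicate 3 both had 0.0446, and without replicate 4 Cdkn1a had 0.0109. Taking the first sequencing run alone gave Wee1 an exact P = 0.389, and the second run alone gave Cdkn1a P = 0.0289. In edgeR's quasi-likelihood test of any difference among the 6 collections of HH, no member passed an adjusted p of 0.05 (39 of 13292 genes did, 0.293%), with Wee1 at adjusted p = 0.498 and Cdkn1a at adjusted p = 0.665. Unadjusted, 2 members had p under 0.05 (Wee1 and Ccnd2), against 8.61% of genes, and DESeq2 also called 0 members after adjustment (1.01% of genes). With the 57 listed libraries in the fit, Wee1 had adjusted p = 0.17 (0.803% of genes called) and 3 members had p under 0.05 (10.5%).

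In HL and LH the outcome depended on the naming of the libraries. By titles no member passed JTK at 0.01 in HL (0.82% of genes did) or in LH (1.53%). Wee1 had an exact P = 0.0169 in HL with a peak at 20 h and P = 0.0669 in LH with a peak at 16 h, and Cdkn1a had P = 0.565 in HL and P = 0.0201 in LH with a peak at 4 h. Wee1 in HL then held 9.54, 10.8 and 13.8 CPM at 8 h and 17.7, 19.9, 24.5 and 28.2 CPM at 20 h. Its LH means were 11.2 ± 2.13 CPM (SD, n = 4) at 8 h and 21.8 ± 2.52 CPM (n = 4) at 16 h. The LH mean of Cdkn1a at 4 h, 97.9 CPM, includes the shallow library, in which it had 16 counts. Under 0.05 there was 1 member in HL (3.44% of genes) and 1 in LH (5.24%), and 0 after adjustment (0.0% of genes). With the null of the published program no member passed 0.01 (0.512% and 0.933% of genes). A cosine fitted in edgeR at p under 0.01, unadjusted, gave 1 member in HL, Wee1 (1.12% of genes), 2 in LH, Wee1 and Cdkn1a (3.27%), and 1 in HH, Wee1 (2.87%). Without the library of 104912 counts, Wee1 passed in LH with an exact P = 0.00311. The share of all genes that passed without that library is not given here.

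By library numbers Wee1 and Cdkn1a passed in HL, 2 of 10 members against 1.83% of 13198 genes, and no member passed in LH (2.14% of genes). Under 0.05 Cdk4 joined them in HL (3 members, 5.93% of genes), and Wee1 and Cdk4 were found in LH (6.3%), while 0 members passed after adjustment (0.0833% of genes in HL). With the null of the published program Wee1 alone, and not Cdkn1a, passed 0.01 in HL (1.03%) and no member in LH (1.31%). The cosine in edgeR at p under 0.01 gave Wee1 and Cdkn1a in HL (1.76% of genes), Wee1 and Cdk4 in LH (2.97%) and Wee1 in HH (3.77%). Wee1 in HL then held 9.58, 10 and 10.8 CPM at 4 h, 12.8, 13.2 and 14.3 CPM at 8 h, and 19.2, 21.6, 24.8 and 25.2 CPM at 12 h. At 16 h it held 21, 21.7 and 27.4 CPM, and at 20 h it was back at 13.5, 14.6 and 16.4 CPM, close to the 14.6, 15.1 and 16 CPM of 0 h. All 7 libraries of 12 and 16 h lay above all 12 others. The ratio of the 16 h to the 4 h mean was 2.31, the fitted peak lay at 15 h ± 0.547 (SE), and the JTK P of 0.00015 (0.11 adjusted over all genes) ranked 17 among the genes tested.

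Cdkn1a in HL by number was again high early, with 50.5, 68.3 and 86 CPM at 0 h and 53.1, 67.8 and 82.7 CPM at 4 h, and low at 12 h, with 26, 29.1, 29.8 and 41.9 CPM. However, 1 library at 8 h (71.8 CPM) and 1 at 16 h (75.6 CPM) reached the early level. The JTK P was 0.0091 with a peak at 2 h, and the fitted peak-to-trough ratio was 2.15 (95% interval 1.41 to 3.28). In LH by number Wee1 had an exact P = 0.0204 with a peak at 14 h and Cdkn1a P = 0.268 with a peak at 2 h. There Wee1 held 9.54, 11.2 and 13.5 CPM at 4 h, and 17.1, 17.7, 19.9 and 28.2 CPM at 12 h. Its highest collection mean there, 24.5 CPM at 16 h, is the value of 1 library.

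**Figure D2:**
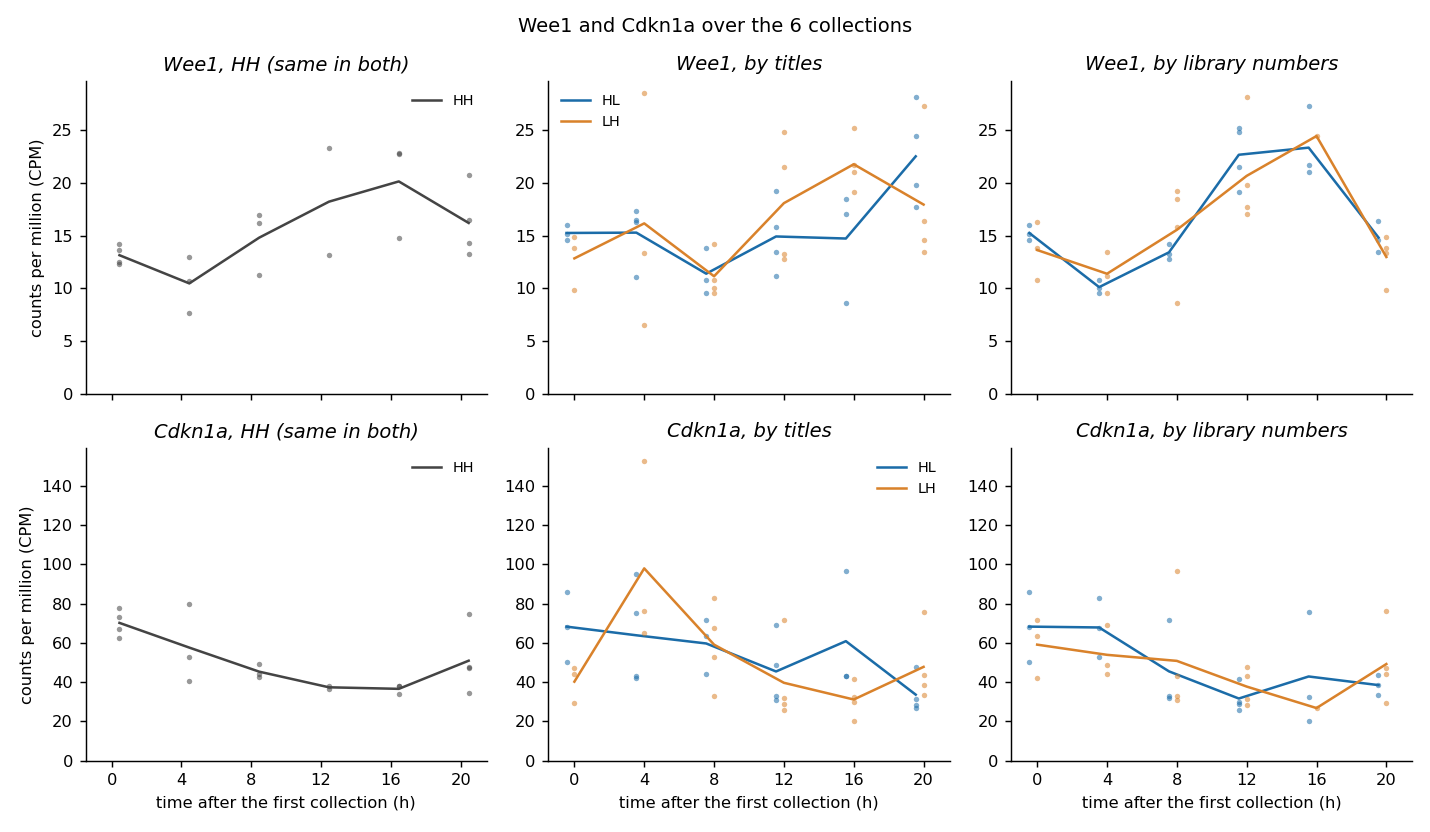
Level of Wee1 (top) and Cdkn1a (bottom) in CPM against hours after the first collection, for HH (left), and for HL and LH by titles (middle) and by library numbers (right). Points are libraries and lines join means. By number, Wee1 in HL peaks at 23.4 CPM at 16 h from 10.1 CPM at 4 h, and Cdkn1a is at 68.3 CPM at 0 h and 31.7 CPM at 12 h.

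The edgeR test of collection also depended on the naming. By titles no member passed at an adjusted p of 0.05 in HL (0.301% of genes did) or in LH (2.93%), with Wee1 at adjusted p = 0.324 and 0.0667. Unadjusted p values under 0.05 were found for 3 members in each (8.98% and 16.9% of genes), and DESeq2 called 0 members in HL (0.775%) and 2 in LH, Wee1 and Cdkn1a (5.24%). By library numbers Wee1 passed in both HL (adjusted p = 0.00556, 0.394% of genes called) and LH (adjusted p = 0.0348, 1.05% of genes called), and no other member did, with 2 members in each at p under 0.05 (5.49% and 14.3%). Without the shallow library Wee1 also passed in LH by titles (adjusted p = 0.0464), and the share of all genes called in that fit is not given here.

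Whether the rhythms differ between treatments was tested by giving each treatment its own 24 h wave in edgeR. No member passed at an adjusted p of 0.05 for any pair of treatments under either naming. By titles 0.0677% of genes passed for HL and LH, 0.015% for HL and HH and 0.0527% for LH and HH, by numbers 0.00758%, 0.0% and 0.0%, and in DESeq2 by titles 0.0753%, 0.143% and 0.0377%, again without a member. By titles the lowest adjusted p of Wee1 was 0.358, for HL and HH, and by library numbers it was 0.885, for LH and HH. For the pairs in the same order, 1, 3 and 2 members had an unadjusted p under 0.05 in edgeR by titles. The shares of all genes were 7.21%, 9.91% and 9.61%. By numbers the member counts were 0, 1 and 1, against 3.01%, 5.48% and 6.87% of genes. The test of treatment by collection called no member either way (0.128% of genes by titles, 0.0% by numbers, 1.35% in DESeq2). A single member, Cdkn1a, had p under 0.05 there by titles (adjusted p = 0.421), against 11.6% of genes, and none did by numbers (5.98%).

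The rhythm of Wee1 was small beside those of the clock genes it shares libraries with. In HH the fitted peak-to-trough ratio was 16.3 for Nr1d1 (REV-ERBα, 95% interval 10.5 to 25.3) with a peak at 9.31 h, 13.4 for Dbp with a peak at 12.7 h, and 4.05 for Tef (3.33 to 4.93) with a peak at 13 h, the last 2 being PAR bZIP factors driven by E-boxes. The 95% intervals of these 3 ratios lie above that of Wee1. Of 19 clock genes, 10 passed JTK in HH, against 1.99% of all genes, the leading ones by exact P being Nr1d2 (P = 1.72e-08, peak 12 h), Nr1d1 (P = 3.44e-07), Tef (P = 9.02e-07) and Dbp (P = 6.63e-05). Arntl, which encodes BMAL1, had its JTK peak at 2 h (exact P = 0.000816), the same 2 h step as that of Cdkn1a.

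Genes of G2 and mitosis, on which WEE1 acts, were tested as a list of 20. In HH 2 passed JTK (1.99% of all genes did), Top2a (topoisomerase II alpha, exact P = 0.00108, peak 6 h) and Ccnb2 (a mitotic cyclin, P = 0.00557, peak 8 h), and 7 had P under 0.05 against 6.42% of all genes. By library numbers 7 of 20 passed in HL, against 1.83% of all genes, led by Ccnb1 (the cyclin partner of CDK1, exact P = 0.00057, peak 8 h), Mki67 (P = 0.000717, peak 6 h), Ccnb2 (P = 0.00108, peak 6 h) and Chek2 (P = 0.0016, peak 2 h). In LH by number 8 of 20 passed, against 2.14% of all genes, led by the mitotic kinase Aurka (exact P = 5.81e-05), Cdk1 (P = 0.000284), Bora (P = 0.000706) and Top2a (P = 0.00161), all with a peak at 4 h. By titles 0 passed in HL (0.82% of all genes) and 1, Cdc20, in LH (1.53%). The peaks of the calls in HH and by number lay between 2 and 8 h, and that of Wee1 between 14 and 16 h in HH and in HL and LH by number. Levels are means over a culture, so that a larger share of cells in a phase and more RNA per cell cannot be told apart.

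**Figure D3:**
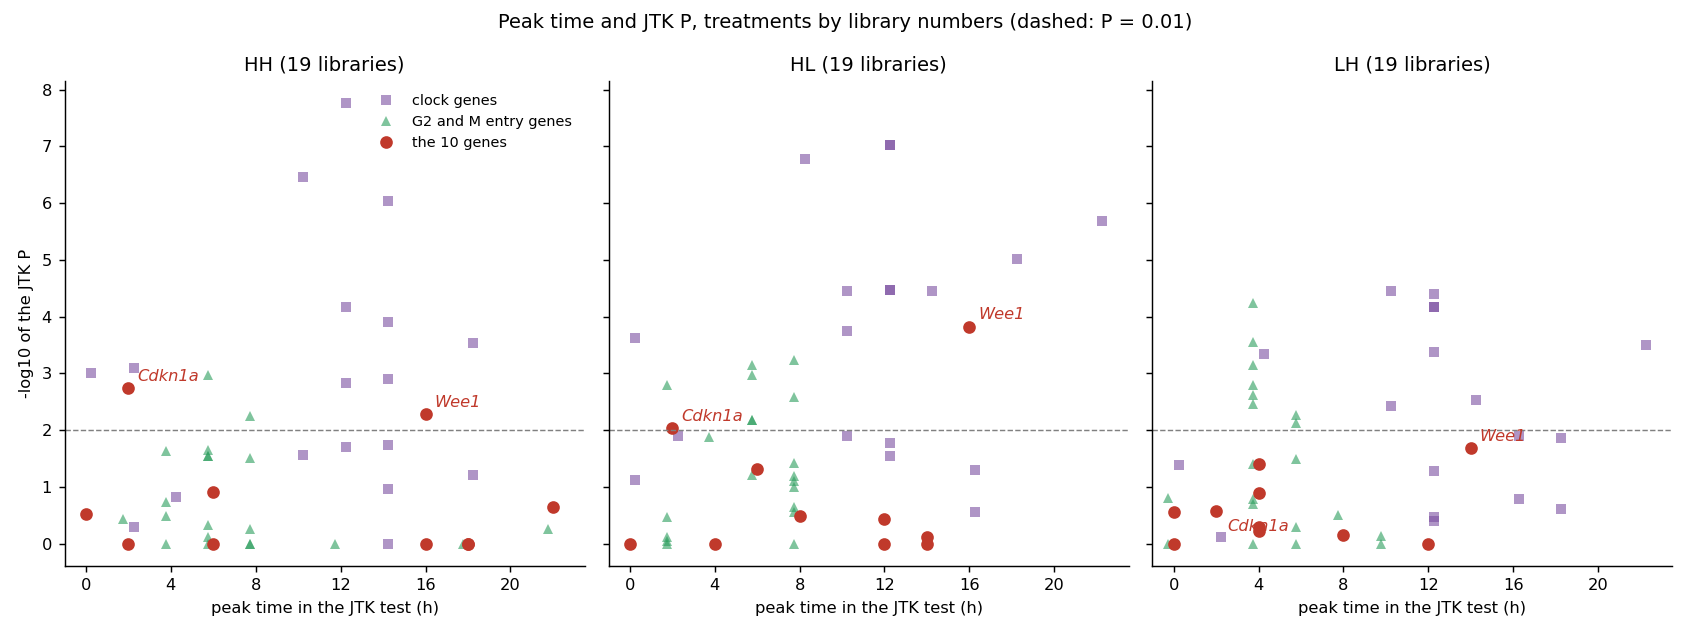
Peak time of the best-fitting curve in hours (horizontal axis) and −log10 of the JTK P (vertical axis) in HH, HL and LH by library numbers, 19 libraries each. Red circles are the 10 genes, purple squares 18 clock genes and green triangles 20 genes of G2 and M entry. Wee1 and Cdkn1a lie above the dashed line of the exact P = 0.01 in HH and HL and below it in LH.

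The p53 pathway was tested as a list of 27. Of 27 tested genes, 0 passed JTK in HH and in HL by titles, and 1, Mdm2 (the ubiquitin ligase that degrades p53), passed in LH by titles (exact P = 0.00322), where 1.53% of all genes did. With P under 0.05 there were 2 in HH, Fas and Rrm2b, against 6.42% of genes, both named after their values were seen. By library numbers none of 26 passed in any treatment. In the edgeR test of collection, the only call was Epha2, in LH by titles, where 2.93% of all genes were called. Trp53 itself had an exact P = 1 in HH, with a mean of 123 CPM. Across the 61 libraries over 1000000 counts the level of Cdkn1a followed the summed level of the list with a Spearman's rho of 0.512, as a description.

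The D-type cyclins and their kinases passed no JTK test in HH. In HH the JTK P was 0.221 for Ccnd1, 1 for Ccnd2 and Ccnd3, 0.124 for Cdk4 and 0.296 for Cdk6. The ratio of the highest to the lowest collection mean in HH was 1.12 for Ccnd3, 1.34 for Cdk6, 1.37 for Cdk4, 1.55 for Ccnd1 and 1.59 for Ccnd2. Cdk4 had the lowest P of these. In HH it held 139, 143, 146 and 154 CPM at 0 h and 97.9, 103, 104 and 120 CPM at 20 h. It had an exact P = 0.0488 in HL (peak 6 h) and 0.0395 in LH (peak 4 h) by library numbers. For Ccnd1, the 4 HH libraries at 0 h held 350, 370, 380 and 393 CPM, above the 197 and 283.2 CPM of 12 h, but the values at 20 h ran from 180 to 419 CPM.

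Cdkn1b, Cdkn2a and Myc had an exact P = 1 in HH. In the edgeR test of collection in HH, Cdkn1b had adjusted p = 0.61 by titles and 0.41 by numbers. Cdkn1b held 72.1 to 219 CPM and the highest value was at 20 h, where the other 3 libraries held 104, 123 and 146 CPM. Myc held 4.36 to 11.4 CPM in HH and is limited by its counts. Among other genes of G1 and entry into S phase, 2 of 33 passed JTK in HH, Lin9 and Cks1b, against 1.99% of all genes, and 1 of 33 in LH by titles, E2f7, against 1.53%. By numbers 1 of 33 passed in HL, Cdc25a, against 1.83% of all genes, and 1 in LH, E2f1, against 2.14%. These single calls are near the shares over all genes. Ccne2 was the single call of the collection test, in HL by numbers (0.394% of all genes). Of 27 Myc partners and targets, 0 passed JTK in HH, and 2, Odc1 and Rrp9, passed the collection test in LH by titles, against 2.93% of all genes. By library numbers 2, Mxd3 and Rrp9, passed JTK in HL, against 1.83%.

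The second question was whether the medium changed the overall level of these genes. None of the 10 passed at an adjusted p of 0.05 in any of the 4 contrasts, under either naming, in edgeR's test with a term for collection. By titles no gene at all did so in edgeR or DESeq2 (0.0% of 13292 in edgeR), and by library numbers 1 to 3 genes did (0.0152% for LH against HL, 0.00758% for HH against HL, 0.0227% for HH against LH and 0.00758% for HH against HL and LH together). With an unadjusted p under 0.05 in edgeR, HH against HL and LH together gave 1 member, Cdkn2a. This held by titles and by numbers, against 6.53% and 6.18% of genes. HH against HL alone gave Cdkn2a by titles (7.42% of genes) and Cdk4 by numbers (3.62%), and HH against LH alone gave Cdkn2a both ways (5.23% and 10.2%). The median change of the 10 members was -0.00082 on the log2 scale by titles, and that of all genes 0.0023.

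Cdkn2a, which opposes entry into S phase, ran from 353 to 764 CPM in HH (median 528, n = 19), from 330 to 797 CPM in HL (median 615, n = 21) and from 438 to 854 CPM in LH (median 594, n = 22) by titles. The ranges overlapped almost entirely. HH was lower by a log2 change of -0.19 ± 0.078 (SE) (95% interval -0.35 to -0.043), with adjusted p = 0.753 in edgeR's test across all genes. By library numbers the change was -0.17 ± 0.072 (adjusted p = 0.756). Against LH alone by numbers it was -0.22 ± 0.083 (adjusted p = 0.358). Leaving out each replicate in turn, the change by titles against HL and LH together lay between -0.235 and -0.112, the smallest without HH replicate 1.

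For the other 9 members the same contrast gave log2 changes between -0.085 (Wee1) and 0.23 (Myc) by titles. Ccnd1 was at 0.19 ± 0.10 (95% interval -0.0058 to 0.39, adjusted p = 0.762), and Myc at 0.23 ± 0.14 (-0.044 to 0.51, adjusted p = 0.77). Without HH replicate 1 the change of Myc was 0.054, and on leaving out each of the other replicates it was 0.191 to 0.297. Ccnd1 ranged from 0.125 without HH replicate 2 to 0.299 without HH replicate 4. The narrowest bounds were those of Ccnd3, -0.039 ± 0.049 (-0.14 to 0.057), and Cdk6, 0.037 ± 0.059 (-0.078 to 0.15). 

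Between LH and HL the changes were between -0.21 (Cdkn1a) and 0.055 (Cdkn1b) by titles, and between -0.057 (Cdk4) and 0.15 (Myc) by numbers. The sign turned with the naming for Wee1, Cdkn1a, Cdkn1b, Cdkn2a, Ccnd3 and Myc. By titles and by numbers Cdkn1a was at -0.21 and 0.074, and Myc at -0.12 and 0.15. The widest interval was that of Myc, -0.44 to 0.20 by titles, and that of Cdkn1a was -0.51 to 0.091. No member had an unadjusted p under 0.05 in edgeR (5.69% of genes did by titles, 7.63% by numbers). The G1 list, the G2 list, the p53 pathway and the Myc list gave no call in any level contrast with HH against HL and LH together. The medians there were 0.044 for G1 and S entry, 0.18 for G2 and M entry, 0.051 for the p53 pathway and -0.046 for Myc partners and targets by titles. Immediate early genes of growth factor signalling had a median of -0.079 with no call, while by titles 3 of 19, Egr1, Egr3 and Fos, passed the collection test in HL (0.301% of all genes did), 1, Ier3, in LH (2.93%) and 1, Egr1, in HH (0.293%). The count in LH is near the share over all genes.

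**Figure D4:**
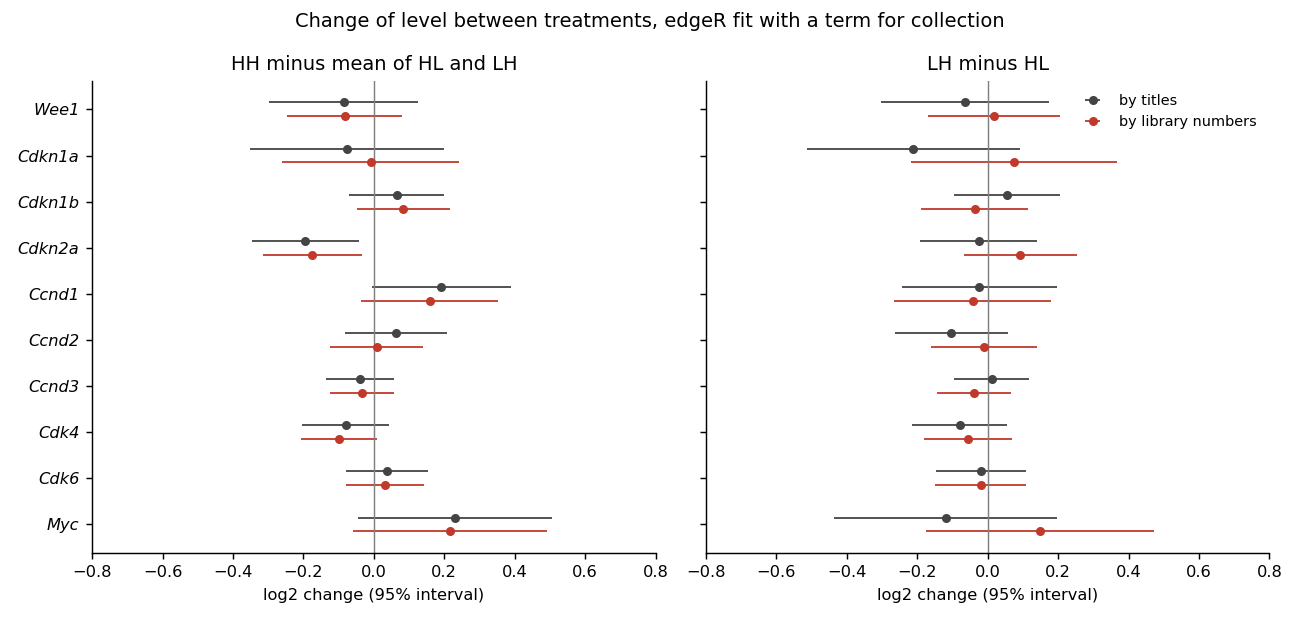
Log2 change of each gene (points) with its 95% interval (bars) from the edgeR fit with a term for collection, for HH against HL and LH together (left) and LH against HL (right), by titles (grey) and by library numbers (red). All intervals on the right include 0, and on the left only those of Cdkn2a exclude it, at -0.19 by titles and -0.17 by numbers.

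How the members moved together was described across libraries without use of the treatment labels, in the 61 libraries over 1000000 counts. These libraries share treatments, collections, and the scaling to a common total, so the values are descriptions and carry no test. Ccnd1 rose and fell with Cdk6 (Spearman's rho 0.752, Pearson's r 0.827, and r = 0.705 without the 2 libraries farthest from the median of Ccnd1) and with Ccnd2 (rho 0.74, r = 0.758, 0.687 without 2). Among the 3 D-type cyclins and 2 kinases, all 10 pairs had a positive rho, from 0.289 (Ccnd2 and Ccnd3) to 0.752. Cdkn2a went against Ccnd2 (rho -0.497, r = -0.53, -0.655 without 2) and against Ccnd1 (rho -0.426).

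Subtracting the mean of each treatment and collection by titles left these relations in place, with rho 0.793 for Ccnd1 and Ccnd2, 0.762 for Ccnd1 and Cdk6, and -0.507 for Cdkn2a and Ccnd2. By library numbers the values were 0.801, 0.744 and -0.619 (n = 56). They thus describe differences between libraries of the same treatment and collection. Levels of Ccnd2 also followed the summed level of the fibroblast markers (rho 0.808) and of the G2 and M genes (rho 0.693), and those of Ccnd1 followed the fibroblast markers with rho 0.584, but neither followed the library total (rho 0.169 and 0.00021). The TMM scaling factor, which corrects for composition, correlated with Ccnd1 at rho 0.502 and with Cdk6 at 0.582, and its part in these relations was not tested.

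Wee1 and Cdkn1a behaved otherwise. Across the 61 libraries they were opposed (rho -0.475, r = -0.433, -0.396 without 2, and rho -0.465 in the 19 HH libraries). Within treatment and collection this was no longer visible, with rho -0.062 by titles and -0.033 by numbers. Within groups Cdkn1a instead went with Cdkn2a (rho 0.559 by titles and 0.55 by numbers) and against Ccnd2 (-0.562 and -0.607) and Ccnd1 (-0.514 and -0.513). By number, replicate 4 of LH at 20 h held 76.2 CPM of Cdkn1a, 854 of Cdkn2a and 1284.5 of Ccnd2. The others of that group held 29.5 to 47.2, 472 to 611 and 2060.5 to 2385 CPM. Replicate 4 by number had the highest Cdkn2a and lowest Ccnd2 of every HL and LH group that held it, except LH at 0 h. The part of these libraries in the relations within groups was not tested. Wee1 had at most a weak relation to the 9 other members within groups, with rho from -0.17 to 0.10 by titles.

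**Figure D5:**
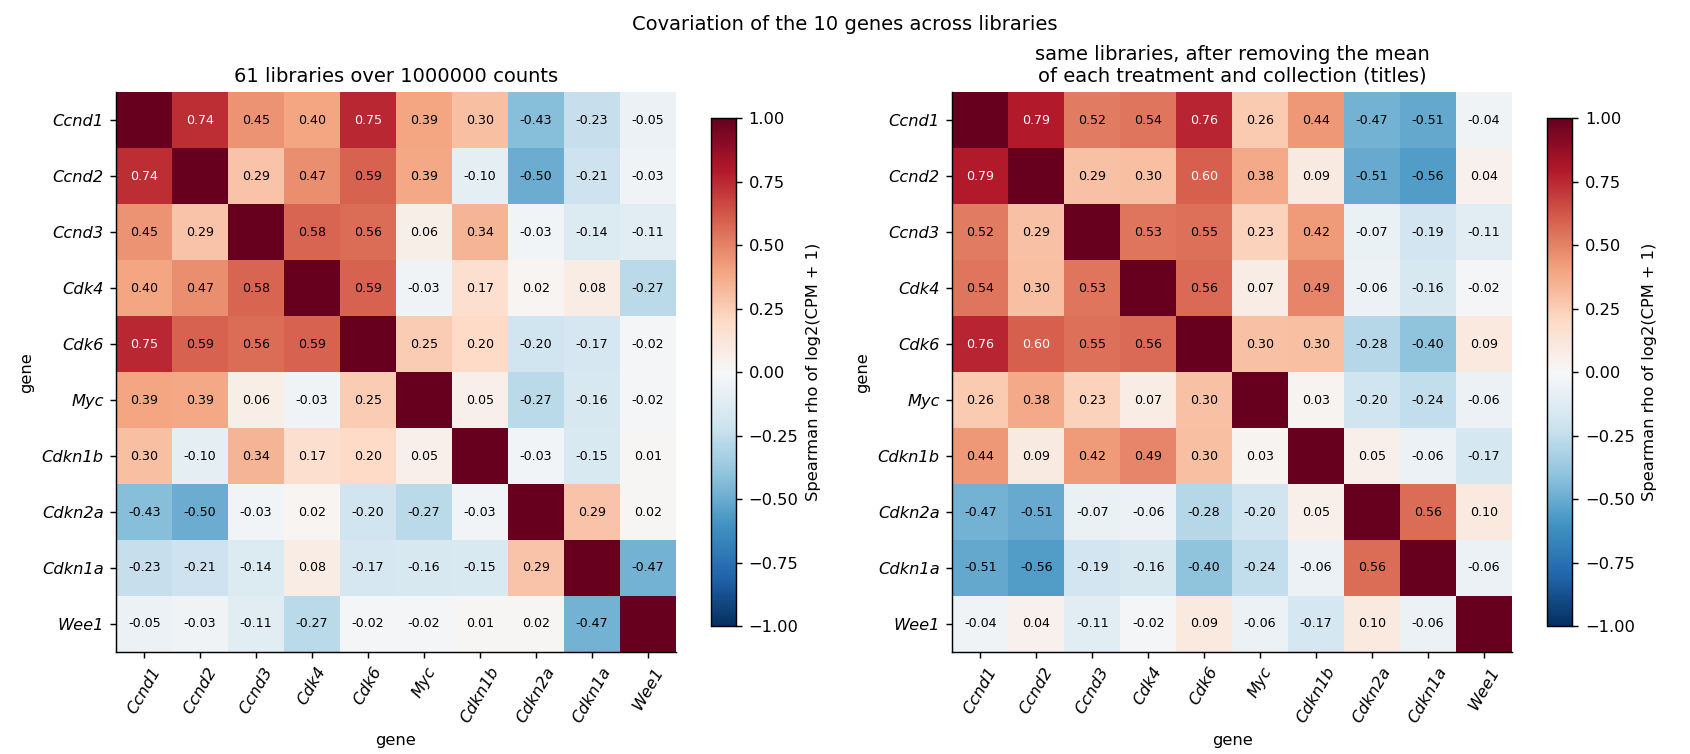
Spearman's rho of log2(CPM + 1) for each pair of the 10 genes over the 61 libraries above 1000000 counts (left), and after subtracting the mean of each treatment and collection by titles (right). Red is positive and blue negative. Ccnd1, Ccnd2 and Cdk6 form a positive block in both, and the negative value of Wee1 and Cdkn1a, -0.475 on the left, is -0.062 on the right.

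Among 7779 other genes (7780 for Myc, whose own mean is lower) with a mean of at least 10 CPM, those most like Wee1 over all 62 libraries were Tspan4 (a tetraspanin, rho 0.587), the clock output gene Tef (rho 0.569) and Cox7a2l (rho 0.558). Without the shallow library Tspan4 and Tef kept the first places (0.647 and 0.585) and Cox7a2l was in place 5. Most like Cdkn1a were Klf13 (a zinc finger transcription factor, rho 0.772), Plat (tissue plasminogen activator, 0.729) and Ifrd1 (0.715). Without the shallow library, in which Cdkn1a had 16 counts, Plat came first (0.787), Klf13 second (0.761) and Ifrd1 was in place 11 (0.703). Most like Ccnd1 were Hs6st2 (a heparan sulfate sulfotransferase, 0.825), Tpm4 (a tropomyosin, 0.821) and Slit2 (a guidance ligand, 0.803). Myc had weaker neighbours, Chd9 (0.486), Rbm6 (0.468) and Ahnak (0.464), and with a median of 32.5 counts a library its values are sparse. Without the shallow library these 3 were in places 2, 5 and 4, while those of Ccnd1 kept places 1 to 3. Within treatment and collection by titles rho was 0.554 for Tspan4, 0.433 for Tef and 0.203 for Cox7a2l with Wee1. It was 0.765 for Klf13, 0.733 for Plat and 0.568 for Ifrd1 with Cdkn1a, and 0.837 for Hs6st2, 0.842 for Tpm4 and 0.797 for Slit2 with Ccnd1. For Myc it was 0.445 with Chd9, 0.403 with Rbm6 and 0.303 with Ahnak. The values of Cox7a2l, Ahnak, Ifrd1 and Tef thus fell by more than 0.1.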

How the data were processed

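Total RNA of Per2::Luc fibroblasts was sequenced by 3′DGE. The submitters' processing notes name bcl2fastq, STAR 2.6.0a, HTSeq 0.9.1 and mm10, and the authors deposited whole-number counts per gene, not normalized, in 121 sets (a set is 1 run of 1 library). Strand setting and annotation: not given in the sources used here. Lines that name no gene (reads on no feature, 18.4% to 29.1% of a run, and ambiguous reads, 0.288% to 0.459%) were left out of totals and tests. Every run passed the study's limit of 2500 genes above 5 CPM, and runs of a library were summed. Divided by its degrees of freedom, the chi-square between the 2 runs was 1.27 to 2.09, and 2.92 to 120 in the 79 library pairs that share treatment and collection by titles, so that none of these pairs was a repeat. Pairs across groups were not compared. In 4 libraries the second run held 10069 to 50239 counts. The study gives its replicates as independent experiments, but the labels do not tie libraries to cultures, so p-values measure the spread between libraries.

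Symbols and positions came from GENCODE M21 (GRCm38). The study's filter (1 CPM or more, 3 libraries or more) left 13292 genes by titles and 13198 by library numbers. JTK_CYCLE was rewritten with an exact null that keeps the ties of the reference curve (period 24 h, phases every 2 h, Bonferroni correction over phases, threshold 0.01). The published program counts all collections as distinct, which was run as an alternative. Levels, collections and rhythm differences were tested with edgeR 4.0.16 (quasi-likelihood, TMM, all treatments in 1 model, Benjamini-Hochberg over all genes, threshold 0.05), with DESeq2 1.42.0 as an alternative, in R 4.3.3. Standard errors of log2 changes are the change divided by the root of its F, and intervals are 1.96 standard errors to each side. A cosine was fitted by least squares to log2(CPM + 1), with errors by the delta method. The edgeR, DESeq2 and JTK tests, but not this cosine, were also run on simulated counts, by titles only. Intervals and floors cover counting error or spread between libraries only.

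The genes, the lists and the tests were chosen with earlier results of these data known. Besides the 10 genes, the text names list genes that passed a test, up to 4 for each list and comparison by smallest p, and the 3 genes most like Wee1, Cdkn1a, Ccnd1 and Myc. Replicate numbers in the titles did not pair the libraries. Deviations from group means correlated with a median of 0.0042 between libraries of the same title number in other groups (438 pairs), and 0.0016 between other title numbers. The replicate numbers of the read summary were not checked in this way. By them, replicate 4 had the highest Cdkn1a in each HL and LH group that holds one, but not in each HH group. In LH at 8 h it held 96.4 CPM against 31.2, 32.8 and 43 CPM. Tests by number have no replicate term. Alternatives are given in the closing section.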

Additional observations from a re-analysis of the deposited data

Results flagged for a closer look

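In 90 combinations of gene, treatment and collection with 4 libraries, 3 had a library far from the others by Dixon's criterion, which chance meets in about 1 in 20 groups. In LH at 12 h by titles, replicate 2 held 71.8 CPM of Cdkn1a against 26 to 31.9 CPM in the other 3, and the same library held 641 CPM of Cdkn2a against 536 to 553 CPM. By its number this library belongs to HL at 8 h. In LH at 8 h by titles, replicate 4 held 286 CPM of Ccnd3 against 209 to 213 CPM.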

How the results depend on the processing

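The number of members called for rhythm (JTK P under 0.01) by titles was 2 for HH and 0 for both alternating regimes. In HL it was 2 by library numbers, where the library of 104912 counts takes no part. It was 1 by numbers with the null of 6 distinct collections, and, with a cosine in edgeR, 1 by titles and 2 by numbers. In LH it was 1 without the library of 104912 counts, and 2 with the cosine by titles and by numbers. In HH it was 1 with run 1 alone, 1 with run 2 alone, 0 after adjustment over all genes, and 1 with the cosine by either naming. For single runs, libraries left out and the replicate block, the shares of all genes called are not given here. Those counts therefore cannot be set against a share. Leaving out each replicate gave 0 to 1 member in each alternating regime, the 1 being found without replicate 2 of HL or of LH. In HH it gave 0 (without replicate 1 or 3) or 1 (without replicate 2 or 4) of the 2 members, with P from 0.0091 to 0.0569 for Wee1 and from 0.00723 to 0.0446 for Cdkn1a. Replicate numbers in the titles did not pair the libraries (the closest library had the same number for 10 of 61). With a block for the title replicate the count in LH was 1 (Cdkn1a, exact P = 0.00804), in HL 0 and in HH 2. It was 0 in every edgeR test. A block for the replicate by library number was not fitted.

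The number of members called for collection at an adjusted p of 0.05 was 0 in each treatment by titles. By library numbers, where the library of 104912 counts takes no part, it was 1 in HL and 1 in LH. With no filter on low genes it was 1 in HL, 1 in HH, 2 in LH and 1 for treatment by collection. The share of all genes called without that filter is not given here, so these counts cannot be set against it. In LH it was 2 with run 2 alone, 1 without the library of 104912 counts and 2 in DESeq2 (5.24% of genes). On leaving out each replicate it was 0 to 1 (1 without LH replicate 2 or 4). Apart from DESeq2, the shares of all genes under these alternatives are not given here. No member was called for level or rhythm difference under any alternative. The change of Cdkn1a in HH against HL and LH together turned from -0.076 to 0.0356 with run 1 alone and to 0.046 by library numbers with no term for collection. The causes were not tested. Alternatives chosen after seeing the data were the null of 6 distinct collections and the last 3 fits by number (that null, the cosine, and no collection term). Depth limits Wee1 and Myc most.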
